A study of Mus musculus with 6 samples.

Results

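Granins and the enzymes that cut their cargo were followed as 10 genes of dense-core vesicles in mouse brain. The 10 were taken by name: the granins Chga, Chgb, Scg2, Scg3, Scg5 and Vgf, and the processing enzymes Pcsk1, Pcsk2, Cpe and Pam. Each matched exactly 1 of the 55604 gene identifiers in the deposited tables, and all 10 passed the filter on low counts that left 11388 genes for testing. The samples were brain RNA of C57BL/6 mice, 3 libraries after intraperitoneal injection of 4-aminopyridine (4-AP, a potassium channel blocker used here to provoke status epilepticus) and 3 from mice labelled untreated. All 6 RNA samples had been digested with RNase R, which removes linear RNA and leaves circles, so a gene's count pools what remained of both forms. The sources used here do not give age, sex, dose, the time from injection to sampling, the brain region taken or whether controls received a vehicle injection. The libraries held 1507882 to 3409055 reads assigned to genes. Nothing states that each library is a separate animal, so the p-values measure the spread between these libraries, which may be technical.

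Dense-core vesicles store neuropeptides and hormones and release them on strong stimulation. Granins are acidic proteins of the vesicle matrix that aggregate in the trans-Golgi network, help to sort cargo into the vesicle and are themselves cut into peptides. Prohormones are opened at pairs of basic residues by the convertases encoded by Pcsk1 and Pcsk2. Carboxypeptidase E, from Cpe, trims the exposed basic residues, and the monooxygenase from Pam amidates the carboxyl end of many peptides. In neurons, Scg2 and Vgf are also known as genes whose transcription responds to activity and to neurotrophins.

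The promoters were searched for the cyclic AMP response element (CRE), the DNA sequence bound by the activity-responsive factor CREB. In the 250 bases before the RefSeq start (GRCm38.p6), the full palindrome TGACGTCA, which reads the same on both strands, was found for Chgb, Scg2 and Pcsk1, that is for 3 of the 8 members with an entry. It was present in 1.55% of 32851 promoter windows of that length. The shorter core TGACG, searched on both strands and contained in each full palindrome, was found for 7 of the 8 members and in 17.8% of all windows. Members without an entry were Vgf and Cpe. The 3 stretches with the full palindrome are shown because they carry the same element while the fold changes of their genes, given below, lay on both sides of 0. Of these fold changes, only that of Scg2 had a 95% interval that leaves out 0. Each stretch runs 5′ to 3′ on the strand of the gene, with the element in capitals.
Scg2, chr1:79440076-79440105, minus strand, element 68 to 61 bases before the RefSeq start: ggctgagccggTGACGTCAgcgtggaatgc
Chgb, chr2:132781559-132781588, plus strand, element 72 to 65 bases before the start: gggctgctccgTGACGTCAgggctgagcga
Pcsk1, chr13:75089768-75089797, plus strand, element 78 to 71 bases before the start: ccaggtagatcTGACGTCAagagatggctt
GENCODE M21, the annotation used here for positions and exon lengths, begins Scg2 94 bases and Chgb 364 bases further upstream, so that by its models the elements of these 2 genes lie inside a first exon. A match describes these letters only.

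The first question was whether any of the 10 genes differed between 4-AP and control brain. Scg2 was higher in every 4-AP library than in every control, with a ratio of 1.55, but 0 of the 10 passed the test (adjusted p under 0.05, quasi-likelihood test of edgeR, Benjamini-Hochberg adjustment over all genes tested). Of all genes tested, 0.843% passed, 0.334% higher and 0.509% lower. At an unadjusted p under 0.05 there was 1 member, Scg2, against 13.9% of all genes. DESeq2 called Scg2 alone, where 5.27% of the 3661 genes to which it gave an adjusted p were called; adjusted over all genes tested, an alternative added after seeing the data, it called 1.33% and again Scg2 alone. By limma-voom 0 members passed, against 0.623% of all genes. The groups did not overlap for 2 members, against 18.8% of all genes. The median log2 fold change was -0.06 over the 10 members and -0.01 over all genes tested. Of the members, 3 lay above 0 and 7 below. On simulated counts with the spread of these libraries, 9.85% of genes changed 1.5-fold and 49.9% of those changed 2-fold were recovered. These shares average over genes drawn at random from all genes tested, so they do not give the recovery at the read counts of Scg2.

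**Figure D1:**
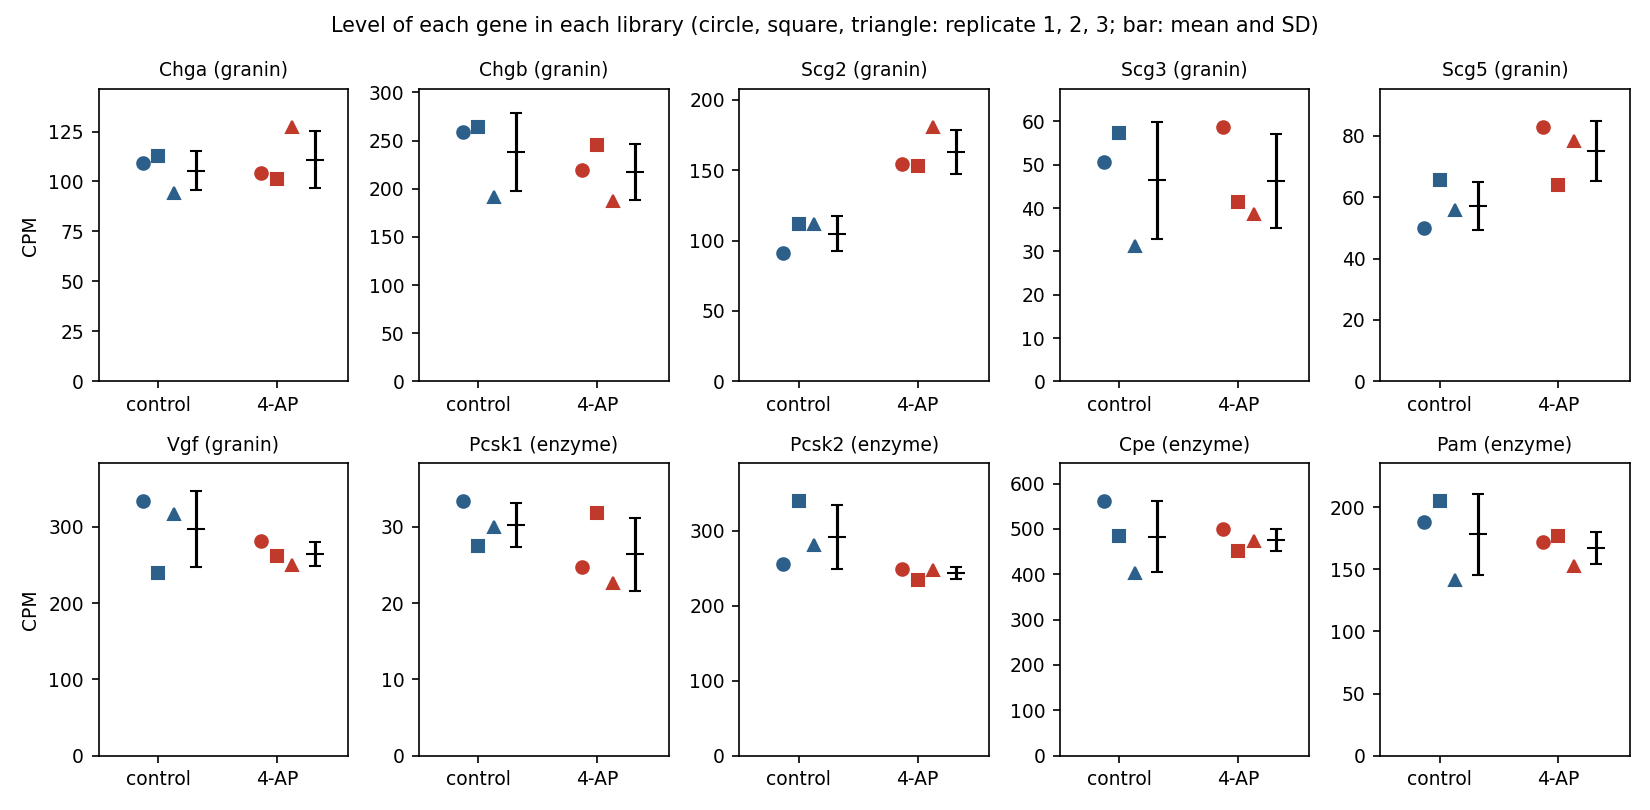
Scaled read counts (CPM, linear axes from 0) of the 6 granins and 4 enzymes in the 3 control and 3 4-AP libraries, with the mean and SD beside each group. Only for Scg2 and Pcsk2 do the groups not overlap; the 4-AP libraries are above the controls for Scg2, at 153 to 181 CPM, and below them for Pcsk2, at 234 to 249 CPM.

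Scg2, encoding secretogranin II, the precursor of secretoneurin, was the member closest to the threshold. It lies on chromosome 1 (79434669 to 79440120, mm10, minus strand). Its level was 154, 153 and 181 CPM (reads per 1000000 of the scaled library size) in 4-AP replicates 1, 2 and 3, against 90.8, 112 and 112 CPM in control replicates 1, 2 and 3. The lowest 4-AP library was thus above the highest control, which 8.36% of all genes tested also showed in this direction. The group means were 163 ± 15.4 and 105 ± 12.2 CPM (SD, n = 3 each). The log2 fold change was 0.63 (SE 0.16; 95% interval 0.30 to 0.96), a ratio of 1.55, with an adjusted p of 0.0577 by edgeR's test. By unadjusted p (0.000615) it ranked 120 among 11388 genes. Its adjusted p ran from 0.0125 with DESeq2 to 0.272 with scaling by total counts, and from 0.0485 to 0.259 when single libraries were left out. It passed with DESeq2 (0.0288 when adjusted over all genes tested), with no filter on low counts (adjusted p = 0.0412 by edgeR's test) and without 4-AP replicate 2 (adjusted p = 0.0485, log2 0.70). Because the tissue was sequenced in bulk, more RNA per cell and more cells that express the gene cannot be told apart, here or for any gene below. A difference in how much linear or circular RNA remained after RNase R cannot be told apart from these either.

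Scg5, whose product is the chaperone of the convertase made from Pcsk2, gave the next largest positive value. The gene lies on chromosome 2 (113776362 to 113829121, minus strand). It had 82.8, 64.0 and 78.2 CPM after 4-AP against 50.0, 65.6 and 55.8 CPM in control brain. Control replicate 2 lay above 4-AP replicate 2, so the groups overlapped. The log2 fold change was 0.38 (SE 0.19; 95% interval -0.01 to 0.77; adjusted p = 0.369 by edgeR's test). Without replicate 1 of both groups, an alternative added after seeing the data, it was 0.21.

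The other granins differed by less than the spread between libraries. Chga, which encodes chromogranin A, the source of several regulatory peptides, had 101 to 127 CPM in 4-AP and 94.2 to 113 CPM in control brain (log2 0.07, 95% interval -0.27 to 0.40; adjusted p = 0.916 by edgeR's test). Chgb, encoding chromogranin B, another matrix protein, had 219, 245 and 187 CPM after 4-AP against 259, 264 and 191 CPM in control brain. In both groups replicate 3 was lowest for Chgb, and its log2 fold change was -0.13 (95% interval -0.46 to 0.20). Leaving out control replicate 2 gave -0.03, and leaving out control replicate 3 gave -0.27. Scg3, whose product binds chromogranin A and the vesicle membrane, was the granin with the widest interval, from -0.50 to 0.46 around -0.02. Its control libraries alone spanned 31.2 to 57.3 CPM.

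Vgf encodes a precursor of secreted peptides and, with Scg2, is the granin best known as activity-regulated. The gene lies on chromosome 5 (137026392 to 137033351, plus strand). It had 282, 261 and 250 CPM after 4-AP against 333, 240 and 317 CPM in control brain. Control replicate 2 was the lowest of all 6 libraries and the other controls were the highest, so the groups overlapped. The log2 fold change was -0.16 (SE 0.15; 95% interval -0.48 to 0.15; adjusted p = 0.704 by edgeR's test). The upper bound corresponds to a ratio of 1.11. Single libraries moved the value, to -0.06 without control replicate 1 and -0.28 without control replicate 2.

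All 4 enzymes had point estimates below 0 and 0 of the 4 passed, but Cpe was above 0 with upper-quartile scaling, without 4-AP replicate 2 (0.04), without control replicate 1 (0.11) and without replicate 1 of both groups (0.06), and Pam without control replicate 2 (0.04). Pcsk2 lies on chromosome 2 (143546156 to 143816285, plus strand). It had 249, 234 and 248 CPM after 4-AP against 256, 339 and 280 CPM in control brain. Every 4-AP library was below every control, by a margin that is small beside the range of the controls, and 10.4% of all genes tested showed such a separation in this direction. Its log2 fold change was -0.26 (SE 0.14; 95% interval -0.56 to 0.04; adjusted p = 0.455 by edgeR's test). Without control replicate 2, the highest library, it was -0.12. With upper-quartile scaling its groups overlapped.

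Pcsk1, the other convertase gene, was the scarcest member, at 22.7 to 31.8 CPM in 4-AP and 27.5 to 33.3 CPM in control brain, from 31 to 106 reads a library. Its log2 fold change was -0.17 (95% interval -0.63 to 0.30), running from -0.08 without 4-AP replicate 3 to -0.32 without 4-AP replicate 2. Cpe was the most abundant, at 476 ± 23.8 CPM against 483 ± 78.7 CPM (SD, n = 3 each; log2 -0.02, 95% interval -0.32 to 0.28). Pam was at 167 ± 12.8 against 178 ± 32.7 CPM (log2 -0.09, 95% interval -0.42 to 0.24). The controls were the more scattered group for both Cpe and Pam, and control replicate 3 was the lowest library for each. The intervals of Cpe and Pam leave out a change of 1.5-fold in either direction.

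**Figure D2:**
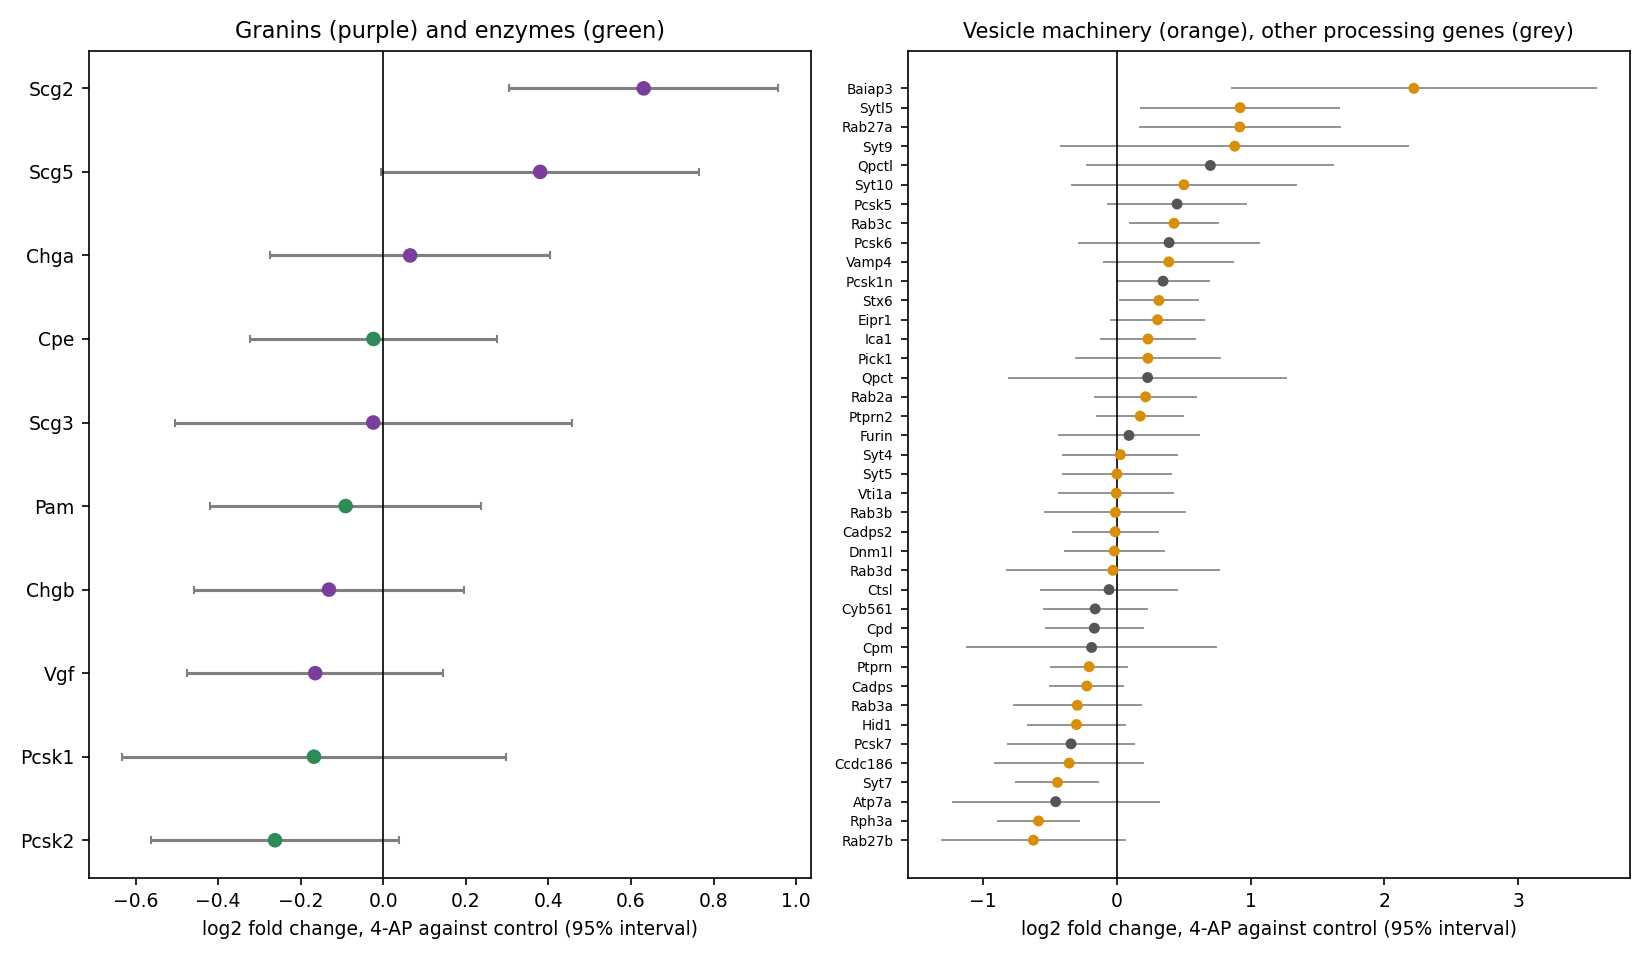
Log2 fold change of 4-AP against control with its 95% interval, for the 10 members on the left and for tested genes of vesicle biogenesis and release and of other precursor processing on the right. On the left the interval of Scg2, 0.30 to 0.96, alone leaves out 0; on the right the value of Baiap3, 2.22, is the largest.

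Scaling bears on the direction of the smaller values. Total counts alone, with no scaling factors, moved the median of all genes to -0.22 and that of the members to -0.29; relative to all genes the members' median was then -0.07, and Scg2 stood 0.64 above the median of all genes, as it did with the scaling used throughout. Of the genes called with total counts only, 26 were higher and 293 lower, against 38 and 58. Chga changed sign with it, to -0.16, which is 0.06 relative to all genes. Cpe and Scg3 moved within 0.01 of 0 on the positive side with upper-quartile scaling.

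To compare genes with each other, CPM were divided by the length of each gene's merged exons (RPKM). In control brain Cpe was highest at 185 ± 30.2 RPKM, followed by Vgf (99.7 ± 16.8) and Chgb (86.9 ± 14.9; SD, n = 3 each), and the last pair did not differ beyond their spread. A middle group of Scg2, Chga, Pcsk2 and Scg5 lay between 36.4 and 41.7 RPKM, neighbours again within their SD. Scg3 and Pam were at 16.9 and 14.97 RPKM, and Pcsk1 was lowest at 5.395 ± 0.522. In 4-AP brain Scg2 was at 64.7 ± 6.12 RPKM, above Scg5 at 47.8 ± 6.26 and Chga at 40.2 ± 5.16, whereas the order of Cpe, Vgf and Chgb was as in the controls. Divided by the length of the principal transcript instead, the control levels of Pam and Pcsk2 were 43.4 and 61.8. Their merged exons span 11892 and 7910 bases and those transcripts 4102 and 4723. Chga, Scg5 and Scg2 were then at 56.0, 47.3 and 41.7, so the middle group depends on the length used. These levels describe RNA left after RNase R, and the order of the genes before digestion was not measured.

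The remaining members lie on chromosome 12 (Chga, 102554969 to 102565028), chromosome 2 (Chgb, 132781278 to 132795079), chromosome 9 (Scg3, 75643189 to 75684056), chromosome 13 (Pcsk1, 75089826 to 75134861), chromosome 8 (Cpe, 64592542 to 64693054) and chromosome 1 (Pam, 97795114 to 98095646), all in mm10. The members differ in exon structure, and circular RNAs usually form from internal exons. In the principal GENCODE transcripts Scg2 and Vgf have their whole coding sequence, 1851 bases in each, in 1 exon, and Chgb has 87.0% of it in its largest coding exon. Pam has 25 coding exons, Pcsk1 14, and Pcsk2 and Scg3 12 each. The 2 genes with a single coding exon had log2 fold changes of 0.63 and -0.16. The 4 genes with 5 to 9 coding exons had values from -0.13 to 0.38, and the 4 genes with 12 or more from -0.26 to -0.02. A link between exon structure and fold change was not tested. No exonic base of 8 members was shared with another gene. For Pcsk2 4.54% and for Pam 1.58% of exonic bases were shared with annotated neighbours, and without a stated strand setting reads there cannot be assigned.

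The 3 genes with the full CRE, whose promoter stretches are given above, had log2 fold changes of 0.63 (Scg2), -0.13 (Chgb) and -0.17 (Pcsk1). The 95% intervals of Chgb and Pcsk1 include 0. Of all 286 tested genes with the full element in their window, 1 (0.350%) was called higher and 0 lower by edgeR's test, near the 0.387% higher and 0.466% lower among 8796 tested genes with a promoter entry, and their median was -0.01.

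Shares within a library do not depend on scaling. Scg2 made up 17.1%, 17.7% and 20.95% of the counts of the 6 granins after 4-AP against 10.2%, 13.2% and 13.98% in control brain. The Wilson 95% intervals, which cover counting error only, were 15.3 to 19.2% in the lowest 4-AP library and 12.5 to 15.7% in the highest control, so these 2 intervals overlapped slightly while the values did not. Vgf held 29.0 to 31.3% in 4-AP and 28.2 to 39.6% in control brain, and Chgb 21.7 to 28.3% and 23.8 to 31.0%. Among the enzymes, Cpe held 50.5 to 52.9% of the counts of the 4 in 4-AP and 45.9 to 54.0% in control brain, and Pcsk2 26.1 to 27.6% and 24.7 to 32.8%. Apart from Scg2, these shares overlapped between the groups.

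**Figure D3:**
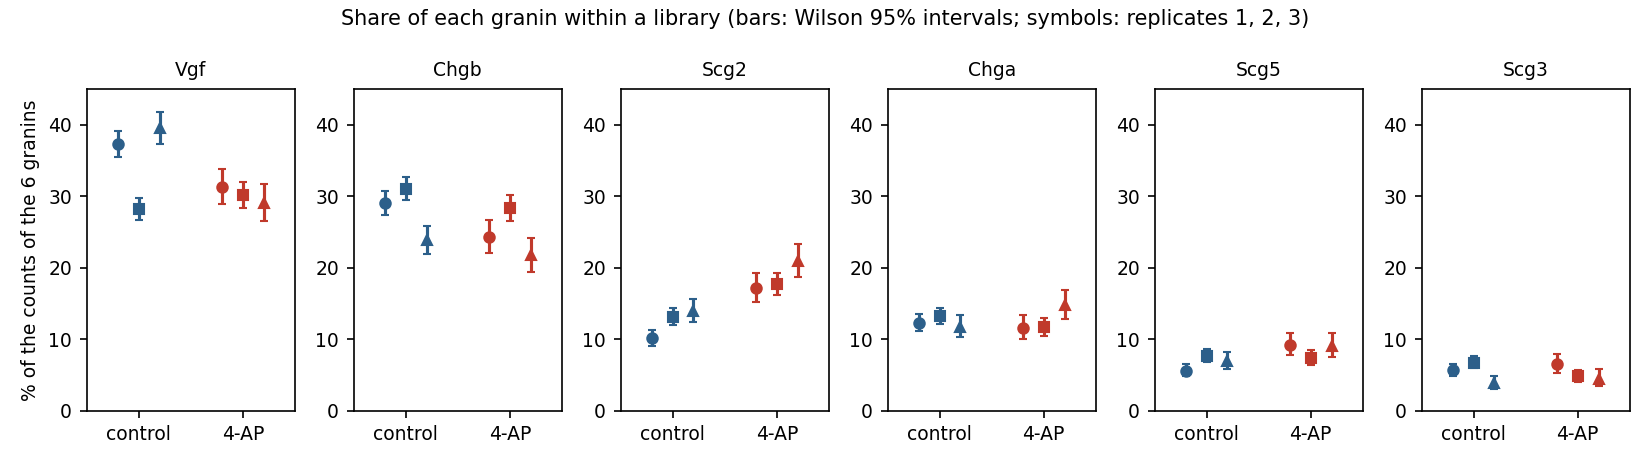
Percent of the counts of the 6 granins held by each gene, per library, with Wilson 95% intervals; axes run from 0. Scg2 lies at 17.1 to 20.95% after 4-AP and 10.2 to 13.98% in control libraries, and the other 5 genes overlap between the groups.

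Other genes of precursor processing did not pass either. Of 16 listed, 12 had enough counts to test, 0 passed in either direction by edgeR's test, DESeq2 or limma-voom, 0 had an unadjusted p under 0.05, and their median log2 fold change was 0.02. Pcsk1n, whose product inhibits the Pcsk1 convertase, was at 378 ± 89.5 CPM against 296 ± 45.5 (SD, n = 3 each; log2 0.35, SE 0.17; adjusted p = 0.371 by edgeR's test). The convertase gene Pcsk5 was at log2 0.45 (SE 0.25), with 4-AP replicates 1 and 3 at 83.4 and 70.9 CPM and the other 4 libraries between 35.7 and 50.0. It was 0.19 without 4-AP replicate 1 and 0.79 without 4-AP replicate 2 (adjusted p = 0.0569 by edgeR's test). Of the genes below 0, the convertase gene Pcsk7 was at -0.34 (SE 0.23) and Atp7a, which encodes a copper pump that supplies the Pam enzyme, at -0.46 (SE 0.37).

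Genes of vesicle biogenesis and release had values on both sides of 0. Of 31 listed, 28 were tested and 0 passed by edgeR's test, 2 by DESeq2 (Baiap3 and Rph3a) and 1 by limma-voom (Baiap3); 7 of the 28 had an unadjusted p under 0.05, 5 of them higher and 2 lower, against 13.9% of all genes tested, and the median was 0.01. Baiap3, which encodes a protein of the Munc13 family that acts in dense-core vesicle exocytosis and recycling, had 163, 116 and 259 CPM after 4-AP against 55.9, 18.2 and 41.5 CPM in control brain. All 3 4-AP libraries were above all controls, with a wide range within each group. Its log2 fold change was 2.22 (SE 0.53; adjusted p = 0.167 by edgeR's robust fit). It passed without the robust fit (adjusted p = 0.00327 by edgeR), with DESeq2 (0.00447), with limma-voom (0.00504) and with no filter (0.0112 by edgeR). With single libraries left out of the robust fit, the log2 fold change stayed between 1.86 and 2.64 and the adjusted p between 0.0532 and 0.333 by edgeR. Rab3c, a small GTPase gene of secretory vesicles, had a log2 fold change of 0.43, with an SE of 0.16 (adjusted p = 0.208 by edgeR's test).

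On the other side, Rph3a, whose product rabphilin binds Rab3 proteins on vesicles, had 237, 176 and 202 CPM after 4-AP against 315, 274 and 332 CPM in control brain. The groups did not overlap, and the log2 fold change was -0.58 (SE 0.15; adjusted p = 0.0610 by edgeR's test). It passed with DESeq2 (0.0248, but 0.0566 when adjusted over all genes tested), with no filter (0.0135 by edgeR) and with total counts only (0.0106 by edgeR). The calcium sensor gene Syt7 had a log2 fold change of -0.44, with an SE of 0.15 (adjusted p = 0.162 by edgeR's test; 0.0454 with total counts only).

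Of the peptide precursors that these vesicles carry, 13 of 39 listed had enough counts to test. By edgeR's test 3 passed, all higher (Oxt, Avp and Trh), and the median was 0.23. DESeq2 called 0 of the list, and the same 3 when adjusted over all genes tested, as did limma-voom. Control replicates 1, 2 and 3 held 0, 0 and 0 reads of Oxt, 0, 3 and 0 of Avp, and 3, 10 and 1 of Trh. These 3 genes thus passed the filter through the 4-AP libraries, so their direction is not independent of the filter. Trh, whose product needs both a convertase and amidation by the Pam enzyme, was at 20.6 ± 2.12 against 1.33 ± 1.12 CPM (SD, n = 3 each), while Cck was at log2 -0.35 (SE 0.20) and did not pass.

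Markers of brain regions differed between the groups beside these values. The summed level of 29 hypothalamic and other subcortical markers was 900 to 1145 CPM in the 4-AP libraries and 252 to 454 CPM in the controls. Hap1 (mean 361 CPM in 4-AP against 130 in control brain) and Nnat (230 against 84.0) made up most of it. Of 17 tested, 16 lay above 0 and 1 below, and 9 passed by edgeR's test, all higher. Among those whose groups overlapped were Slc17a6, Prkcd, Rgs16 and Zic1. Of the 29, 4 had no count in any control library. The genes called include Oxt, Avp, Trh, Irs4 and Gabrq, which passed the filter through the 4-AP libraries, so their direction is not independent of it. Control replicates 1, 2 and 3 held 4, 1 and 1 reads of Irs4 and 7, 3 and 4 of Gabrq. All lists were also drawn up with earlier results of these data known, so that their direction is not independent evidence. The sum of 14 cortical glutamatergic markers was 1692 to 2395 CPM in 4-AP and 2913 to 3080 CPM in control brain, and 3 of 14 tested passed by edgeR's test, all lower. The sum of 15 pan-neuronal markers was 4017 to 4410 against 4589 to 5015 CPM, with 0 passing by edgeR's test and 2 by DESeq2. An unadjusted p under 0.05 was found for 4 of the 15 (1 higher, 3 lower), against 13.9% of all genes tested. All 15 were detected in both groups. The summed level of the 10 members, 1759 to 1847 CPM in 4-AP and 1656 to 1931 CPM in control brain, lay within the range of the controls. Pituitary hormone markers summed to 5.36 to 24.8 CPM in 4-AP and 0.259 to 16.7 CPM in control brain, mostly Gh. What part regional markers have in the values of Scg2, Scg5 or Baiap3 was not tested.

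Activity-regulated genes were measured beside Scg2 and Vgf. Their 23 listed genes summed to 955 to 1201 CPM in 4-AP and 1577 to 2113 CPM in control brain; of 22 tested, 2 fell (Ier5 and Fosl2) and 0 rose by edgeR's test, and the median was -0.71. At an unadjusted p under 0.05 there were 13 of the 22, all lower, against 13.9% of all genes tested in either direction. DESeq2 called 4 lower (Arc, Egr3, Fosl2 and Ier5) and limma-voom 2 (Arc and Ier5). Scg2 thus had a positive value in libraries where 21 of these 22 genes lay below 0, against 5803 of all 11388 genes tested. Some of the 21 were close to 0, such as Bdnf at -0.002. Vgf was at -0.16, with a 95% interval of -0.48 to 0.15 that includes 0. This list too was drawn up with earlier results of these data known, so its direction is not independent evidence.

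**Figure D4:**
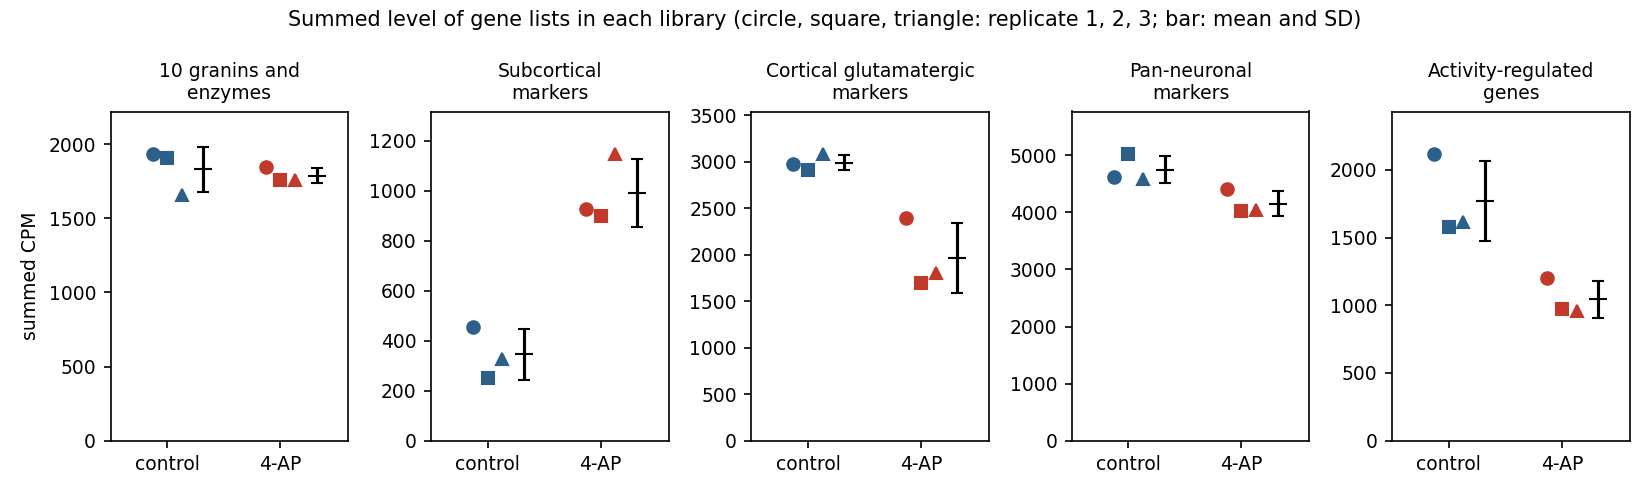
Summed CPM of 5 gene lists in each library, with mean and SD; each axis starts at 0. The 10 members overlap between the groups. The sum of subcortical markers, mostly Hap1 and Nnat, is higher in every 4-AP library than in every control. The sums of cortical glutamatergic markers, pan-neuronal markers and activity-regulated genes are lower.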

How the data were processed

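The authors deposited 1 table of raw read counts per gene for each of 6 libraries; STAR 2.5.3a, featureCounts and mm10 are named per the submitters' processing notes. How strand and reads with several matches were handled, and which annotation release was counted, the sources used here do not state. Total counts ran from 1507882 to 2721287 in the 4-AP libraries and from 2355610 to 3409055 in the controls, and 3 counts equal 0.778 to 2.19 CPM. Of 55604 identifiers, 54809 matched GENCODE M21 (mm10) by identifier without its version.

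Genes were kept by filterByExpr (minimum count 10, total 15), scaled with TMM factors, and compared by edgeR 4.0.16 in R 4.3.3 (quasi-likelihood, robust, group only), with limma 3.58.1 and DESeq2 1.42.0 as alternatives beside other scalings and filters, the replicate block and each library left out. Every pair of libraries differed beyond sampling noise (chi-square per degree of freedom at least 7.79), and each counted as 1 replicate. The fit was tested on simulated counts for 11388 genes in 5 draws. Members and lists were chosen with earlier results of these data known. Genes named are the 10 members and, per list and direction, up to 2 genes with the smallest p; Oxt and the calls of other tools were named after their values were seen. DESeq2 gave an adjusted p to 3661 genes. Microglia, astrocyte, oligodendrocyte, GABAergic, vascular, blood and choroid plexus markers were also measured.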

Additional observations from a re-analysis of the deposited data

How the results depend on the processing

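The direction of Scg2, Scg5, Chgb, Vgf, Pcsk1 and Pcsk2 was the same in all 18 alternatives. Not all of these could change it: no robust fit repeats the main log2 fold changes, and the readjusted DESeq2 repeats those of DESeq2. Members called numbered 1 (Scg2) with DESeq2, DESeq2 adjusted over all genes tested, no filter, the replicate block or an adjusted p under 0.1, and 0 to 1 without single libraries. The members' median was -0.29 with total counts only and ran from -0.16 to 0.02 without single libraries. Members whose groups do not overlap numbered 1 with upper-quartile scaling and 2 to 4 without single libraries. The number was 4 without 4-AP replicate 2, control replicate 2 or control replicate 3. Groups with fewer libraries separate more easily, and the share over all genes was not compared in these settings. Of all genes, 319 were called with total counts only, 193 with DESeq2, 152 with DESeq2 adjusted over all genes tested, 328 with no filter, 55 with no robust fit, 290 at an adjusted p under 0.1 and 265 with the replicate block, against 96. Without single libraries this count ran from 26 to 159: 26 without 4-AP replicate 3, 37 without control replicate 3, 41 without control replicate 2, 52 without 4-AP replicate 1 and 159 without control replicate 1. Genes of the other lists called numbered 34 with total counts only, 37 with no filter, 28 at an adjusted p under 0.1 and 32 with the replicate block, and 8 to 18 without single libraries (8 without 4-AP replicate 3), against 15. Signs changed among values near 0: Chga to -0.16 with total counts only (-0.041 to 0.16 without single libraries), Cpe to 0.0061 with upper-quartile scaling and 0.058 without replicate 1 of both groups (-0.14 to 0.11), Scg3 to 0.0030 with upper-quartile scaling and 0.00021 with DESeq2 (-0.23 to 0.18), and Pam from -0.23 to 0.041 without single libraries. The cause of these changes was not tested.

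The series text calls the tissues paired without saying what pairs them. Same-numbered libraries correlated at -0.0019, 0.113 and 0.025 in their deviations from the group means, so that 1 of 3 pairs exceeded 0.1, and not every library correlated best with its own number. With the replicate number as a block Scg2 had a log2 fold change of 0.63 (edgeR, adjusted p = 0.0257), and Baiap3 and Rph3a also passed (6.23e-05 and 0.0243).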

Other observations

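Convertases work with small chaperone or inhibitor proteins, and the ratio of their genes within a library is free of scaling. The ratio of Scg5 to Pcsk2 counts, chosen after its values were seen, was 0.332, 0.273 and 0.316 after 4-AP against 0.195, 0.194 and 0.199 in control brain. The controls lay close together, and every 4-AP library was above them, with a difference of 0.64 between the group means on the log2 scale. Of the 45 ratios between 2 members, 10 (22.2%) did not overlap between the groups, 7 of them with Scg2 and 3 with Scg5. For comparison, the groups did not overlap for 18.8% of single genes tested, and the share over ratios of other genes was not measured. Ratios that share a gene are not independent, so the count of 10 is a description only. The ratio of Pcsk1n to Pcsk1, the other such pair, was 18.08, 8.71 and 18.03 after 4-AP against 10.5, 9.79 and 9.04 in control brain, and the groups overlapped.

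Of the remaining marker lists, edgeR's test called 1 gene, the astrocyte transporter Slc1a2 (log2 -0.63), among 10 astrocyte markers, and none among the tested genes of 10 oligodendrocyte, 10 microglia, 10 GABAergic, 10 vascular, 6 blood cell and 10 choroid plexus and ependymal markers. Median log2 fold changes were 0.11 for astrocyte, 0.08 for oligodendrocyte, 0.04 for microglia, 0.03 for GABAergic, -0.05 for vascular, 0.62 for the 3 tested blood cell and 0.99 for the 4 tested choroid plexus and ependymal markers. At an unadjusted p under 0.05 there were 4 of 9 tested microglia markers (3 higher, 1 lower) and 1 of 10 oligodendrocyte markers (higher). So were 1 of 10 astrocyte markers (lower) and 2 of 4 tested choroid plexus and ependymal markers (2 higher). The GABAergic, vascular and blood cell lists had 0, and the share over all genes tested was 13.9%. DESeq2 called 1 further gene, the microglial receptor gene Cx3cr1.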
